A study of Mus musculus with 16 samples.

Results

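The heavy chain variable gene repertoire of cMyc+ germinal center (GC) B cells was described from all 185 table entries whose gene name begins with Ighv, out of 51912 entries in all. The 185 entries carried 183 distinct names, since Ighv5-8 and Ighv1-13 were each listed in duplicate, and every entry was found in the GENCODE M21 annotation of mouse build GRCm38 on chromosome 12, between positions 113572927 and 116010093. That annotation called 113 of them IG_V_gene, 70 pseudogenes and 2 IG_LV_gene. Every entry was kept: 56 had 0 reads in all 16 libraries, 119 rose above 3 reads in at least 1 library, and 80 reached the mean normalized count of 10 that was required for tests of single genes.

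The 16 RNA-seq libraries came from splenic B cells of cMyc gfp/gfp mice, which express cMyc fused to green fluorescent protein from the Myc locus, 6 to 15 weeks old and of both sexes, 7 days after intraperitoneal immunization with sheep red blood cells. After depletion of CD43-bearing cells, B220+ CD38low CD95+ cMycGFP+ cells were sorted into 4 subpopulations with 4 libraries each. The cMyc+prePB cells, candidate precursors of plasmablasts, were CD69hi. The cMyc+early cells were CD23hi CD21/35hi, the cMyc+lateCD23int cells were CD23int CD21/35int and the cMyc+lateCD23lo cells were CD23lo CD21/35lo. All groups shared the reporter allele, the immunogen and the day, and no group without cMyc expression was included. The cMyc+ cells of the GC dark zone, which the study gated as a separate subpopulation, were not included either. The study took the cMyc+early and the late subpopulations from light zone cells. The labels do not say whether libraries with different replicate numbers came from different mice, so p-values measure the spread between these libraries only.

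A heavy chain variable (V) gene encodes most of the part of the heavy chain that binds antigen. During B cell development, recombination joins a single V gene per productive allele to a D and a J segment. Each B cell clone therefore usually expresses 1 heavy chain V gene. The pool of V transcripts in a population reflects which V genes its clones use and how much immunoglobulin RNA they make. Counts per V gene do not tell apart clones that use the same V gene. Related V genes form families, named by the first number of the symbol, which were copied from each other over evolution. In the GC, the rearranged V region undergoes somatic hypermutation, whose preferred targets include the motif AGCT. In bulk libraries, more cells using a V gene and more V RNA per cell cannot be told apart.

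The sequences of the genes on which the results turned are shown here as the last 300 bases of the spliced coding part of the germline V segment, from GENCODE M21 transcripts on GRCm38, 5′ to 3′. Ighv9-3 was the most abundant V gene of the collection and led 12 of 16 libraries, and Ighv6-3 led the first cMyc+prePB library. Ighv9-3 lies at chr12:114140692-114141122 and Ighv6-3 at chr12:114391712-114392169, both on the minus strand with 2 exons. Capitals mark AGCT, a motif that reads the same on both strands and that occurs 3 times in the whole coding part of Ighv9-3 and 2 times in that of Ighv6-3, of which 2 and 1 lie in the stretches shown (coding bases 52 to 351 and 57 to 356).
Ighv9-3: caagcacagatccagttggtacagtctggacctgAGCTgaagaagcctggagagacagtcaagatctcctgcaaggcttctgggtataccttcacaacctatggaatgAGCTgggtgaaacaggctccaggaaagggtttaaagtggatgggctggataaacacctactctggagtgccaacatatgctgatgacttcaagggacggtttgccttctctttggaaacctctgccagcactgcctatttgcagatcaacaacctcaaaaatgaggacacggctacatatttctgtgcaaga
Ighv6-3: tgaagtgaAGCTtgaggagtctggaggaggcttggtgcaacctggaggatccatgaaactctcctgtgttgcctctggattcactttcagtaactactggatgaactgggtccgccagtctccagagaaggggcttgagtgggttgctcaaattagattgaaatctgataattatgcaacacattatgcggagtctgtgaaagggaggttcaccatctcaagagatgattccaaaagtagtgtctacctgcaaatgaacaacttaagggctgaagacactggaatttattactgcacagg
At least 1 AGCT was present in 96.5% of the 113 IG_V_gene coding sequences, with a median of 3 and a range of 0 to 7, so its presence did not set these genes apart. Across the 113 genes, Spearman's rho between the number of AGCT motifs and the mean share was 0.30, given as a description because genes are not independent and share libraries.

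The 4 members of the Ighv14 family are shown because, of the 10 families tested, this was the one whose share differed between subpopulations. They lie on the minus strand at chr12:113931953-113932382 (Ighv14-1), chr12:113994469-113994898 (Ighv14-2), chr12:114059845-114060321 (Ighv14-3) and chr12:114176438-114176867 (Ighv14-4). The stretch shown covers the last 300 columns of their alignment (coding bases 52 to 351, but 40 to 333 in the shorter Ighv14-4), and capitals mark positions at which the 4 sequences did not all carry the same base, 21 of the 23 in the whole coding part.
Ighv14-1: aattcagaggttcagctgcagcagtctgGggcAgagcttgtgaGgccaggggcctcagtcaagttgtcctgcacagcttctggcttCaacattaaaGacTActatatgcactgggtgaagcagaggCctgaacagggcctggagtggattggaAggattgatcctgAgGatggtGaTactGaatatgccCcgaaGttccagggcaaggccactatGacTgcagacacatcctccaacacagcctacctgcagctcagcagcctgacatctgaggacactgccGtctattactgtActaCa
Ighv14-2: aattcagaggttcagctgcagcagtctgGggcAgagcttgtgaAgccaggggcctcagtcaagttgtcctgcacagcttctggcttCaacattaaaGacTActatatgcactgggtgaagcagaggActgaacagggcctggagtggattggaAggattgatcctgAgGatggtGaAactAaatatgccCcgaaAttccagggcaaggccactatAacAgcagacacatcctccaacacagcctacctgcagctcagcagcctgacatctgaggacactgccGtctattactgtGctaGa
Ighv14-3: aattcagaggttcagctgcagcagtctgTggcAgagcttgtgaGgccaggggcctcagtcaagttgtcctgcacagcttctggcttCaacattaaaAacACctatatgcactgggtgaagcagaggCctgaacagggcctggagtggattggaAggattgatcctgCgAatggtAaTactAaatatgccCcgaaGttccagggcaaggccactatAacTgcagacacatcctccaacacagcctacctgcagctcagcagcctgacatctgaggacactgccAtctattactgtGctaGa
Ighv14-4: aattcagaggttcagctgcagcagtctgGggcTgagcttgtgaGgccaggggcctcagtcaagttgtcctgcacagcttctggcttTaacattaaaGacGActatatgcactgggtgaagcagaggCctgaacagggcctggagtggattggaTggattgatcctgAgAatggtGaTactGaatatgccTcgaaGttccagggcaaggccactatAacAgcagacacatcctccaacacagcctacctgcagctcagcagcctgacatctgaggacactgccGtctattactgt
Over aligned bases, the 6 pairs were between 95.7% (Ighv14-2 and Ighv14-3) and 97.6% (Ighv14-1 and Ighv14-4) identical, so the assignment of reads among the 4 is less certain than the family total.

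Ighv1-72, known as the main V gene of the anti-nitrophenyl response in C57BL/6 mice, is shown at chr12:115757984-115758461 on the minus strand because its closest relative, Ighv1-62-3, differed from it at 3 of 351 coding bases, which all lie in the stretch shown (bases 52 to 351) and are marked in capitals.
Ighv1-72: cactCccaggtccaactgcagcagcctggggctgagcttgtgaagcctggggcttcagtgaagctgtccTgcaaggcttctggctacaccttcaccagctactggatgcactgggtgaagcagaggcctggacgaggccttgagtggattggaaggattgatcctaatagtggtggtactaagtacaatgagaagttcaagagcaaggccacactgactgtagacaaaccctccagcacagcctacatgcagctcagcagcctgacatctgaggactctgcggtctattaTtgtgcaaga
Of the 80 tested entries, 11 had a coding sequence at least 97% identical to that of another entry. Ighv1-62-2 and Ighv1-71 were identical over all 302 coding bases, and reads from that stretch cannot be assigned to either by sequence.

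Ighv transcripts were a small part of each library, from 0.0209% to 0.0623% of 19812080 to 25795815 recovered reads. This corresponded to between 4569 and 13879 Ighv reads per library, so that the 3-read limit used as a detection floor equalled a share of 0.0216% to 0.0657% of the Ighv sum. Between 75 and 97 entries exceeded the floor in a library. All 12 genes of a GC B cell marker list were detected, with summed normalized counts of 120465 to 299908 per library. Marker lists of other cells summed to 1337 to 3194 for T cells, 1.65 to 1174 for macrophages and myeloid cells and 165 to 4954 for erythroid cells. Of the 9 T cell genes, 3 reached the mean normalized count of 10. Cd3e, also on that list, was at 0 in 13 libraries and at most 30.7, so most of the T cell sum came from other listed genes. The part of other cells in the Ighv values was not tested.

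The Ighv sum was higher in the cMyc+prePB subpopulation than in the other 3. As normalized counts, the 4 cMyc+prePB libraries had sums of 14338, 9880, 12514 and 10507. The cMyc+early libraries had 7091, 8852, 6276 and 9461, the cMyc+lateCD23int libraries 6585, 6229, 8947 and 7526, and the cMyc+lateCD23lo libraries 4924, 8637, 7691 and 8140. Every cMyc+prePB library was thus above every other library. The ratio of geometric means was 1.5 against cMyc+early, 1.61 against cMyc+lateCD23int and 1.63 against cMyc+lateCD23lo. An exact permutation test over the 4 subpopulations gave p = 0.0118 (0.0286 after Benjamini-Hochberg adjustment over the 7 library-level measures). Each pairwise exact permutation test (two-sided) gave p = 0.0286, the smallest that 4 against 4 allows, or 0.0571 adjusted over 6 pairs. The other 3 pairs had ratios of 1.01 to 1.09 and exact permutation p-values from 0.600 to 0.943.

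Without the first cMyc+prePB library, which had the highest sum, the exact permutation p over subpopulations was 0.0607. Relative to the immunoglobulin kappa variable (Igkv) entries the difference between subpopulations did not pass (exact permutation p = 0.160).

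The heavy chain constant region genes, which are transcribed from the same rearranged locus, were read alongside. Their summed normalized counts were 92463 to 117598 for cMyc+prePB libraries, 80637 to 101486 for cMyc+early, 75332 to 95511 for cMyc+lateCD23int and 75361 to 86639 for cMyc+lateCD23lo libraries. The log2 sum differed between subpopulations (exact permutation p = 0.00853), and the log2 ratio of Ighv to constant gene counts differed as well (exact permutation p = 0.0398), with means of -3.19 ± 0.12 (SD, n = 4) in cMyc+prePB and -3.56 ± 0.14, -3.54 ± 0.10 and -3.50 ± 0.29 in the other 3. Of 8 constant genes tested one by one, 2 passed the limma test over the 4 subpopulations with Benjamini-Hochberg adjustment, against 0.408% of all genes tested. These were Igha, the IgA constant region, and Ighg3, the IgG3 constant region. Igha counts were 21278, 2686, 10770 and 6557 in cMyc+prePB libraries and 340 to 1148 in the other 12.

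Genes known to act in heavy chain transcription and in hypermutation were tested from 2 lists. None of the 13 transcription genes, among them Pou2af1 and Ell2, and none of the 12 hypermutation genes passed the limma test over subpopulations (0.408% of all genes) or in any of the 6 pairs (0.008% to 0.28%). At such shares less than 1 call would fall in lists of this size, so the counts of 0 did not set these genes apart. Their median log2 fold changes between pairs stayed between -0.22 and 0.07. A plasma cell marker list, of which 9 of 10 genes were in the table, had summed normalized counts of 43065 to 118117 for cMyc+prePB, 29085 to 37617 for cMyc+early, 36987 to 66004 for cMyc+lateCD23int and 63467 to 96182 for cMyc+lateCD23lo libraries, dominated by Jchain. Sdc1, which encodes the plasma cell surface protein CD138, was at 0 in 9 libraries and at 108 in the second cMyc+prePB library. The part of plasma cells in the Ighv sum was not tested.

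Diversity was expressed as the effective number of genes, the number of equally used genes that would give the same Shannon entropy of the shares. It was lowest in the cMyc+prePB subpopulation, at 38.4, 44.8, 45.5 and 38.1 in its 4 libraries. In cMyc+early it was 48.1, 53.0, 46.7 and 49.3, in cMyc+lateCD23int 48.6, 50.6, 48.9 and 53.0, and in cMyc+lateCD23lo 43.6, 49.9, 53.6 and 48.6. The cMyc+prePB libraries lay below all cMyc+early and cMyc+lateCD23int libraries and overlapped with 1 cMyc+lateCD23lo library. The means were 41.7 ± 4.0 (SD, n = 4) in cMyc+prePB and 49.3 ± 2.7, 50.3 ± 2.0 and 48.9 ± 4.1 in the other 3, in the order above. The exact permutation test over subpopulations gave p = 0.0123 (0.0286 adjusted over 7 measures), and among the 3 other subpopulations alone p = 0.816.

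No single pair passed adjustment for diversity. The cMyc+prePB subpopulation differed from cMyc+early by -7.56 and from cMyc+lateCD23int by -8.59 effective genes (exact permutation p = 0.0286 each, 0.0857 adjusted over 6 pairs), and from cMyc+lateCD23lo by -7.21 (exact permutation p = 0.0857, adjusted 0.171). The genes needed to reach 50% of the Ighv sum numbered 9 to 11 in cMyc+prePB libraries and 11 to 15 in the others. The inverse Simpson number, which gives more weight to the most abundant genes, was 27.1 ± 4.3 (SD, n = 4) for cMyc+prePB, 35.6 ± 0.9 for cMyc+early, 34.4 ± 2.9 for cMyc+lateCD23int and 33.0 ± 5.2 for cMyc+lateCD23lo, with an exact permutation p of 0.0297 that did not pass adjustment (0.0520).

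The number of entries detected did not differ detectably between subpopulations, at 86.8 ± 3.9 (SD, n = 4) for cMyc+prePB, 85.3 ± 9.7 for cMyc+early, 88.5 ± 6.8 for cMyc+lateCD23int and 84.0 ± 5.6 for cMyc+lateCD23lo (exact permutation p = 0.807). When all libraries were thinned to the 4569 Ighv reads of the shallowest one, the exact permutation p was 0.103. The largest share of a single gene was 10.3% ± 3.1 (SD, n = 4) for cMyc+prePB, 7.39% ± 0.91 for cMyc+early, 8.39% ± 1.98 for cMyc+lateCD23int and 9.64% ± 2.09 for cMyc+lateCD23lo (exact permutation p = 0.284).

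**Figure D1:**
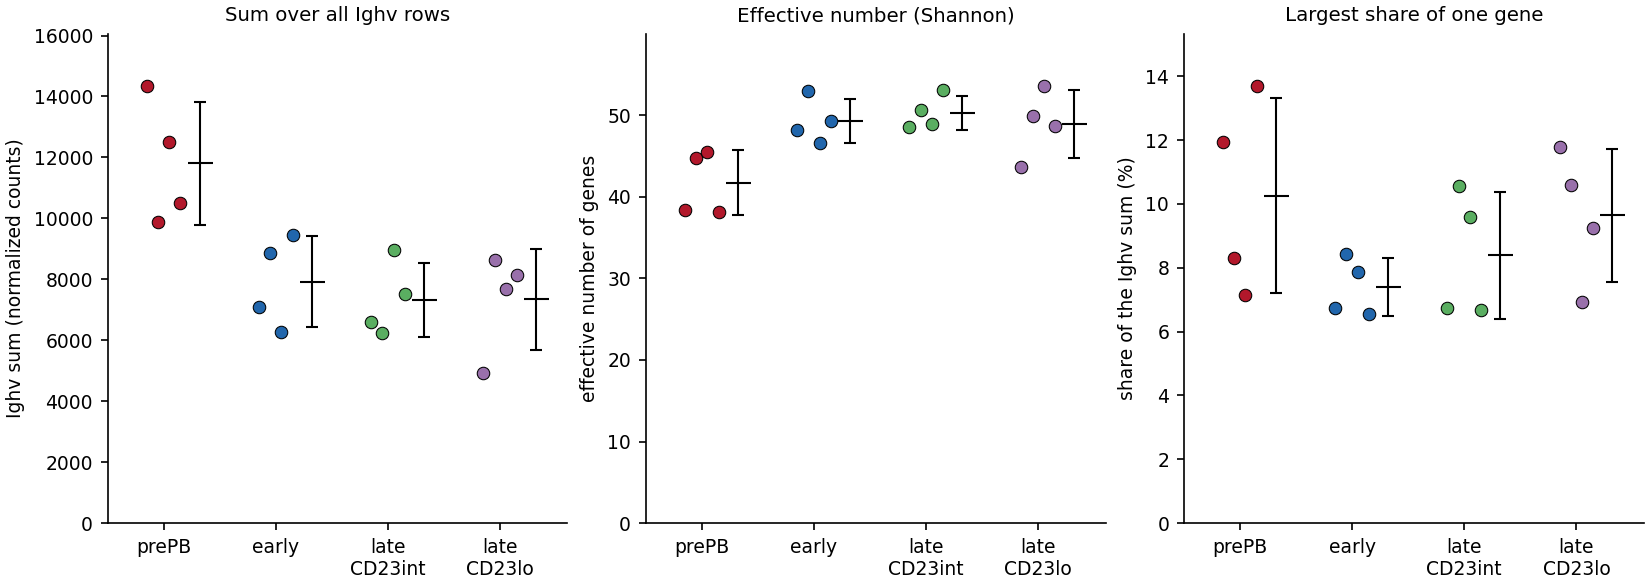
Ighv sum in normalized counts (left), effective number of Ighv genes (middle) and largest share of the Ighv sum taken by 1 gene in percent (right), with 1 point per library and the mean with SD beside each group (n = 4). All 4 cMyc+prePB sums, 9880 to 14338, lay above the other 12, and the cMyc+prePB effective numbers, 38.1 to 45.5, were the lowest on average.

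Ighv9-3 was the most abundant gene in most libraries. The 8 genes with the highest mean share held 34.3% of the Ighv sum on average. Ighv9-3 had a mean share of 8.25% ± 2.49 (SD over 16 libraries). Its share was 4.33%, 7.06%, 5.74% and 13.7% for cMyc+prePB, 6.19%, 8.43%, 7.88% and 6.54% for cMyc+early, 6.73%, 10.6%, 9.58% and 6.68% for cMyc+lateCD23int, and 11.8%, 10.6%, 6.92% and 9.26% for cMyc+lateCD23lo libraries. The cMyc+prePB libraries held both its lowest and its highest share, and all groups overlapped. It was followed by Ighv1-64 (4.68% ± 1.41), Ighv1-26 (4.14% ± 1.84), Ighv6-3 (3.94% ± 2.49), Ighv3-6 (3.83% ± 1.09), Ighv1-81 (3.40% ± 1.52), Ighv5-6 (3.13% ± 0.89) and Ighv5-4 (2.97% ± 1.39), and from Ighv1-64 on each neighbour in this order differed from the next by less than the SD over libraries. Over the 16 libraries, the shares closest in pattern to that of Ighv9-3 were those of Ighv1-55 (Spearman's rho 0.66), Ighv1-66 (0.39) and Ighv5-12 (0.39), described without a test since shares of 1 library sum to a constant.

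Ighv9-3 was the leading gene in all 8 libraries of the 2 late subpopulations, in 3 of 4 cMyc+early libraries and in 1 of 4 cMyc+prePB libraries. The other 3 cMyc+prePB libraries were each led by a different gene. Ighv6-3 took 11.9% of the first (95% Clopper-Pearson interval 11.4% to 12.5%, covering counting error only), Ighv1-26 took 8.29% of the second (7.81% to 8.80%) and Ighv1-62-2 took 7.13% of the third (6.71% to 7.57%). In the first cMyc+early library Ighv1-81 led with 6.72% (6.14% to 7.35%), and the interval included the 6.19% of Ighv9-3 there.

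Several genes had a high share in a single cMyc+prePB library. Ighv9-4, a gene with a 294-base annotated coding part at chr12:114299961-114300389, had shares of 8.32%, 0.52%, 0.89% and 0.83% in cMyc+prePB and 0.17% to 1.27% in the other 12 libraries, resting on 1110 reads in the first cMyc+prePB library and at most 123 in any other. Ighv1-62-2 had 1.43%, 1.01%, 7.13% and 0.57% in cMyc+prePB and 0.33% to 2.39% elsewhere, and Ighv1-71, identical to it in coding sequence, had 0.94% or less in every library. Ighv1-82 had 1.48%, 1.28%, 1.61% and 4.71% in cMyc+prePB and 0.56% to 1.81% elsewhere. In shares, the remaining cMyc+prePB libraries of each of the 3 genes lay within the range of the other subpopulations. This did not hold on normalized counts. There Ighv1-82 had 212, 127, 201 and 495 in cMyc+prePB and 48.7 to 160 elsewhere. Ighv9-4 had 1193, 51.3, 111 and 87.5 against 16.3 to 90.3, and Ighv1-62-2 had 205, 100, 893 and 59.5 against 23.1 to 125.

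Ighv6-3 and Ighv1-80 varied over more than 1 library. Ighv6-3 had shares of 11.9%, 3.92%, 5.13% and 3.93% for cMyc+prePB, 2.79%, 2.85%, 3.07% and 6.09% for cMyc+early, 2.72%, 2.21%, 1.81% and 3.96% for cMyc+lateCD23int, and 1.44%, 2.13%, 3.91% and 5.21% for cMyc+lateCD23lo. Ighv1-80 had 0.28%, 0.79%, 1.22% and 1.62% for cMyc+prePB, 2.54%, 3.96%, 2.59% and 4.54% for cMyc+early, 3.97%, 2.47%, 4.18% and 5.10% for cMyc+lateCD23int, and 1.38%, 1.04%, 2.61% and 1.68% for cMyc+lateCD23lo. The cMyc+prePB shares of Ighv1-80 were below all those of cMyc+early and cMyc+lateCD23int and overlapped with those of cMyc+lateCD23lo. Ighv1-72 had shares of 1.57% ± 0.45 (SD, n = 4) for cMyc+prePB, 2.05% ± 0.20 for cMyc+early, 1.68% ± 0.37 for cMyc+lateCD23int and 2.59% ± 0.73 for cMyc+lateCD23lo, and its relative Ighv1-62-3 stayed at 0.33% or less.

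**Figure D2:**
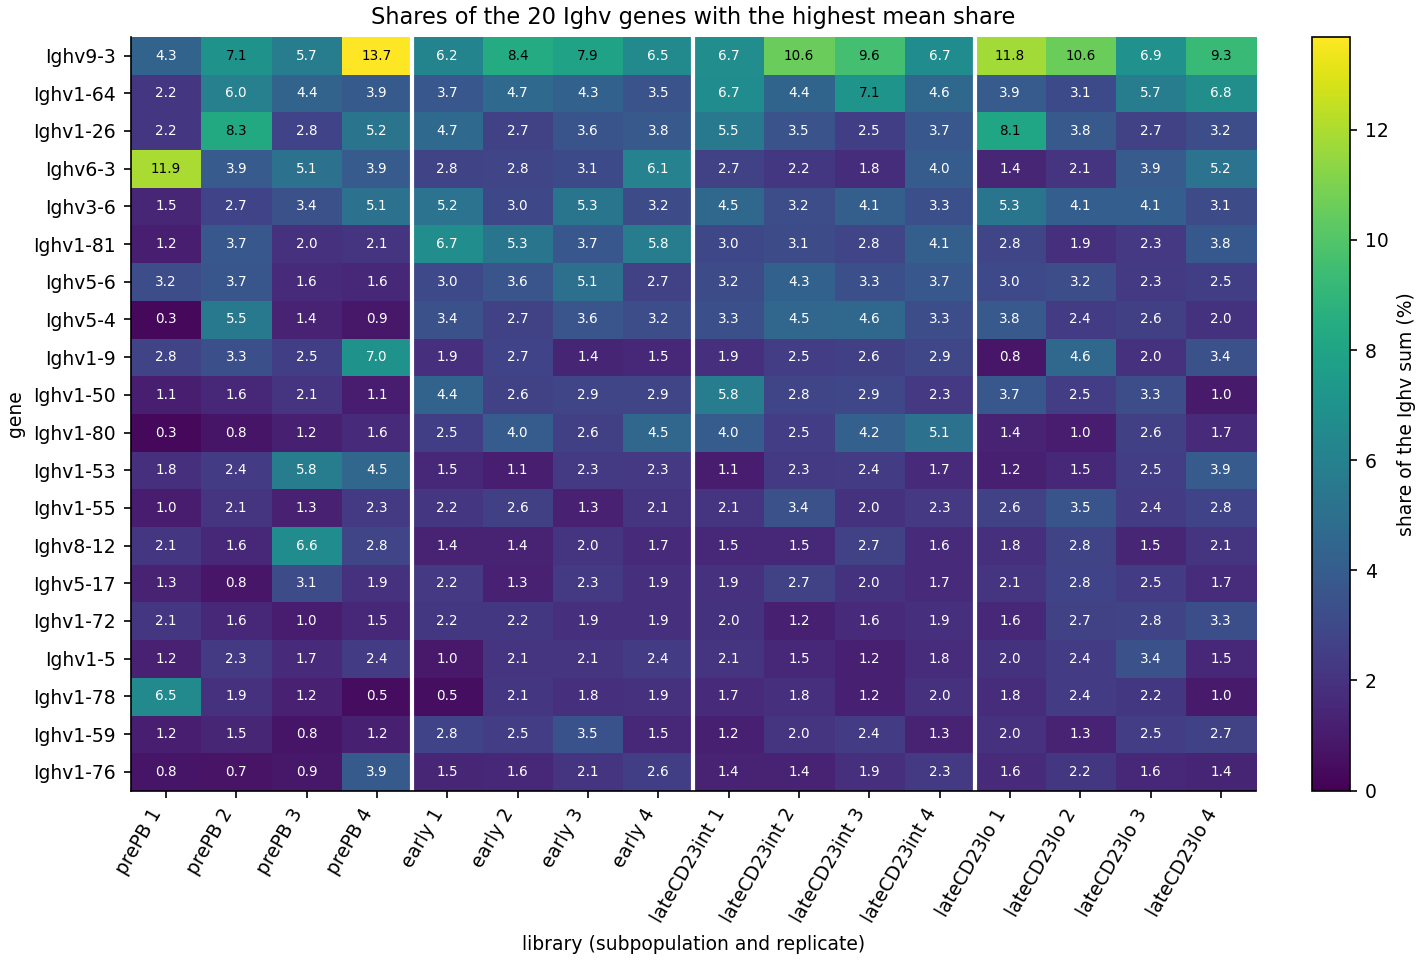
Share of the Ighv sum in percent (colour and printed value) of the 20 Ighv genes with the highest mean share, 1 row per gene and 1 column per library, ordered by subpopulation and replicate. Ighv9-3 was the brightest row, with 4.3% to 13.7%, while single cMyc+prePB libraries stood out for other genes, such as Ighv6-3 at 11.9% in the first.

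Tested one by one on log2(normalized count + 1) with limma, 0 of the 80 Ighv genes passed a Benjamini-Hochberg adjusted p of 0.05 over the 4 subpopulations, where 0.408% of all 12505 genes tested passed. At an unadjusted p under 0.05 there were 9 Ighv genes, near the share over all genes (10.2%). edgeR's quasi-likelihood test on the recovered reads also called 0 (0.232% of all genes), with 15 of 80 at an unadjusted p under 0.05, above the share over all genes (8.89%). In the pairs, limma called 0 of 80 between cMyc+prePB and cMyc+early (0.192% of all genes), between cMyc+prePB and cMyc+lateCD23int (0.144%), between cMyc+prePB and cMyc+lateCD23lo (0.264%), between cMyc+early and cMyc+lateCD23int (0.008%), between cMyc+early and cMyc+lateCD23lo (0.28%) and between the 2 late subpopulations (0.008%). At an unadjusted p under 0.05 limma gave 12, 15, 9, 1, 3 and 1 of 80, in that order, against 8.58%, 8.77%, 12.7%, 3.71%, 10.3% and 6.28% of all genes. edgeR gave 0 calls in every pair (0.064%, 0.088%, 0.248%, 0.008%, 0.184% and 0.008% of all genes). Its counts at an unadjusted p under 0.05 were 16, 17, 12, 1, 2 and 1 of 80, against 7.76%, 7.83%, 12%, 3.54%, 9.93% and 6.21% of all genes. With limma and edgeR alike, these unadjusted counts were above the share over all genes for cMyc+prePB against cMyc+early and against cMyc+lateCD23int. They were below it in the pairs without cMyc+prePB. The excess was not tested, and the Ighv genes of a library are not independent. At such low shares over all genes, less than 1 call would fall among 80 genes, so the counts of 0 did not set the Ighv genes apart.

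The genes with the smallest limma p over the 4 subpopulations were Ighv1-82 (adjusted p = 0.328), Ighv9-4 (adjusted p = 0.369) and Ighv1-80 (adjusted p = 0.370). Their log2 fold changes between cMyc+prePB and cMyc+early were 1.08 ± 0.49 (SE), 2.52 ± 0.81 and -1.43 ± 0.53, with adjusted limma p-values of 0.571, 0.344 and 0.446. Ighv6-3 had 1.24 ± 0.55 (SE) between the same subpopulations (limma, Benjamini-Hochberg adjusted p = 0.559). The values of Ighv1-82, Ighv9-4 and Ighv6-3 leaned in part on single libraries, while that of Ighv1-80 stayed between -1.71 and -1.02 with any library left out. Without the first cMyc+prePB library the log2 fold change was 1.55 for Ighv9-4 and 0.78 for Ighv6-3, and without the fourth it was 0.71 for Ighv1-82. DESeq2 on the recovered reads called 4 of 80 genes over the 4 subpopulations, where it called 2.12% of all genes. These were Ighv9-4 (adjusted p = 0.000172), Ighv1-82 (0.0209), Ighv6-3 (0.0282) and Ighv11-2 (0.0401), of which the first 3 had their highest share in a single cMyc+prePB library, far above the others of that subpopulation. DESeq2 also called 2 genes between cMyc+prePB and cMyc+early (1.05% of all genes), Ighv9-4 and Ighv11-2, 2 between cMyc+prePB and cMyc+lateCD23int (1.04%), Ighv6-3 and Ighv5-9, and 2 between cMyc+prePB and cMyc+lateCD23lo (2.18%), Ighv9-4 and Ighv1-82, each higher in cMyc+prePB. Ighv11-2, named after its values were seen, had shares of 1.54%, 0.02%, 2.61% and 0% in cMyc+prePB and 0.31% or less elsewhere.

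The direction of most single genes followed the scale. On normalized counts, 47 of 80 genes had higher mean log2 values for cMyc+prePB than for cMyc+early, 53 than for cMyc+lateCD23int and 56 than for cMyc+lateCD23lo, with median log2 fold changes of 0.23, 0.35 and 0.33 against 0.01, -0.02 and -0.01 over all genes tested. After the Ighv entries were rescaled to the same Ighv sum in every library, 32, 31 and 28 of 80 were higher, with medians of -0.31, -0.33 and -0.33. Rescaling lowers all Ighv values of a library with a high Ighv sum together, so the change in these counts restates the difference in the sum and is no separate result about single genes. No Ighv gene had all 4 cMyc+prePB normalized counts above the other 12 libraries (0.328% of all genes tested) or all 4 below them (0.264%).

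By family, Ighv1 held the largest part of the repertoire with 53.7% of the Ighv sum on average, followed by Ighv5 with 13.2% and Ighv9 with 10.4%. Ighv1 also holds 93 of the 185 entries. Its share was 52.3% ± 8.2 (SD, n = 4) for cMyc+prePB, 54.4% ± 1.8 for cMyc+early, 53.8% ± 1.9 for cMyc+lateCD23int and 54.1% ± 1.9 for cMyc+lateCD23lo (exact permutation p = 0.963), and its lowest value was 40.5% in the first cMyc+prePB library. Of the 10 families with a mean share of at least 1%, only Ighv14 differed between subpopulations after Benjamini-Hochberg adjustment over the 10 (exact permutation p = 0.000223, adjusted 0.00223). The adjusted p-values of the other 9 were 0.442 or higher.

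The Ighv14 share was highest in cMyc+early cells and lowest in cMyc+prePB cells. It was 3.61%, 1.75%, 2.06% and 1.59% for cMyc+prePB, 5.19%, 4.72%, 4.69% and 5.69% for cMyc+early, 4.59%, 4.08%, 4.23% and 3.77% for cMyc+lateCD23int, and 2.60%, 3.69%, 3.35% and 2.49% for cMyc+lateCD23lo libraries. The cMyc+early libraries lay above all others, and the cMyc+lateCD23int libraries lay above all cMyc+lateCD23lo and cMyc+prePB libraries. Pairwise, the exact permutation p was 0.0286 (adjusted over 6 pairs 0.0343) for 5 of 6 pairs, and 0.200 between cMyc+prePB and cMyc+lateCD23lo. Among the 3 subpopulations other than cMyc+prePB, the exact permutation p was 0.000173.

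Fitted to normalized counts in place of shares, the Ighv14 family gave no call. As normalized counts, the family summed to 279 ± 165 (SD, n = 4) for cMyc+prePB, 405 ± 102 for cMyc+early, 305 ± 53 for cMyc+lateCD23int and 227 ± 81 for cMyc+lateCD23lo, and this sum on the log2 scale did not pass (exact permutation p = 0.154).

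Within the family, Ighv14-1 and Ighv14-3 had their lowest shares for the cMyc+prePB libraries. Ighv14-1 had shares of 0.112%, 0.0753%, 0.0288% and 0.0429% in cMyc+prePB, all below the 0.169% to 0.842% of the other 12 libraries, and rested on 4 to 15 reads there. Ighv14-3 had 0.675%, 0.879%, 0.865% and 0.644% in cMyc+prePB, all below the 0.897% to 1.82% elsewhere. These were the 2 genes among the 80 whose shares separated completely in that way, 0 separated upward, and both are named after their values were seen. On normalized counts 0 of the 80 separated downward, where 0.264% of all genes tested did. There Ighv14-3 had 67.6 to 108 in cMyc+prePB and 44.2 to 156 elsewhere, and Ighv14-1 had 3.61 to 16.1 and 10.6 to 59.7. A share also falls where the Ighv sum of its library is high.

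Ighv14-2 had 0.55% ± 0.19 (SD, n = 4) for cMyc+prePB, 1.54% ± 0.60 for cMyc+early, 1.39% ± 0.34 for cMyc+lateCD23int and 0.87% ± 0.49 for cMyc+lateCD23lo. Ighv14-4 had a high share in the first cMyc+prePB library, with 2.00% against 0.40% to 0.63% in the other 3, and reached 3.06% in the fourth cMyc+early library. Without Ighv14-4 the share of the family still differed (exact permutation p = 0.000206). None of the 4 passed the limma test alone, the smallest being Ighv14-1 (adjusted p = 0.481), with log2 fold changes of -2.03 ± 0.76 (SE) against cMyc+early, -1.89 ± 0.76 against cMyc+lateCD23int and -1.92 ± 0.76 against cMyc+lateCD23lo. A naive and follicular B cell marker list of 6 genes summed to 10354 to 18395 normalized counts for cMyc+prePB, 16422 to 25727 for cMyc+early, 12224 to 23494 for cMyc+lateCD23int and 7024 to 13420.0 for cMyc+lateCD23lo libraries. The list includes Fcer2a, which encodes CD23 and was a sorting marker, and its part in the Ighv14 share was not tested.

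**Figure D3:**
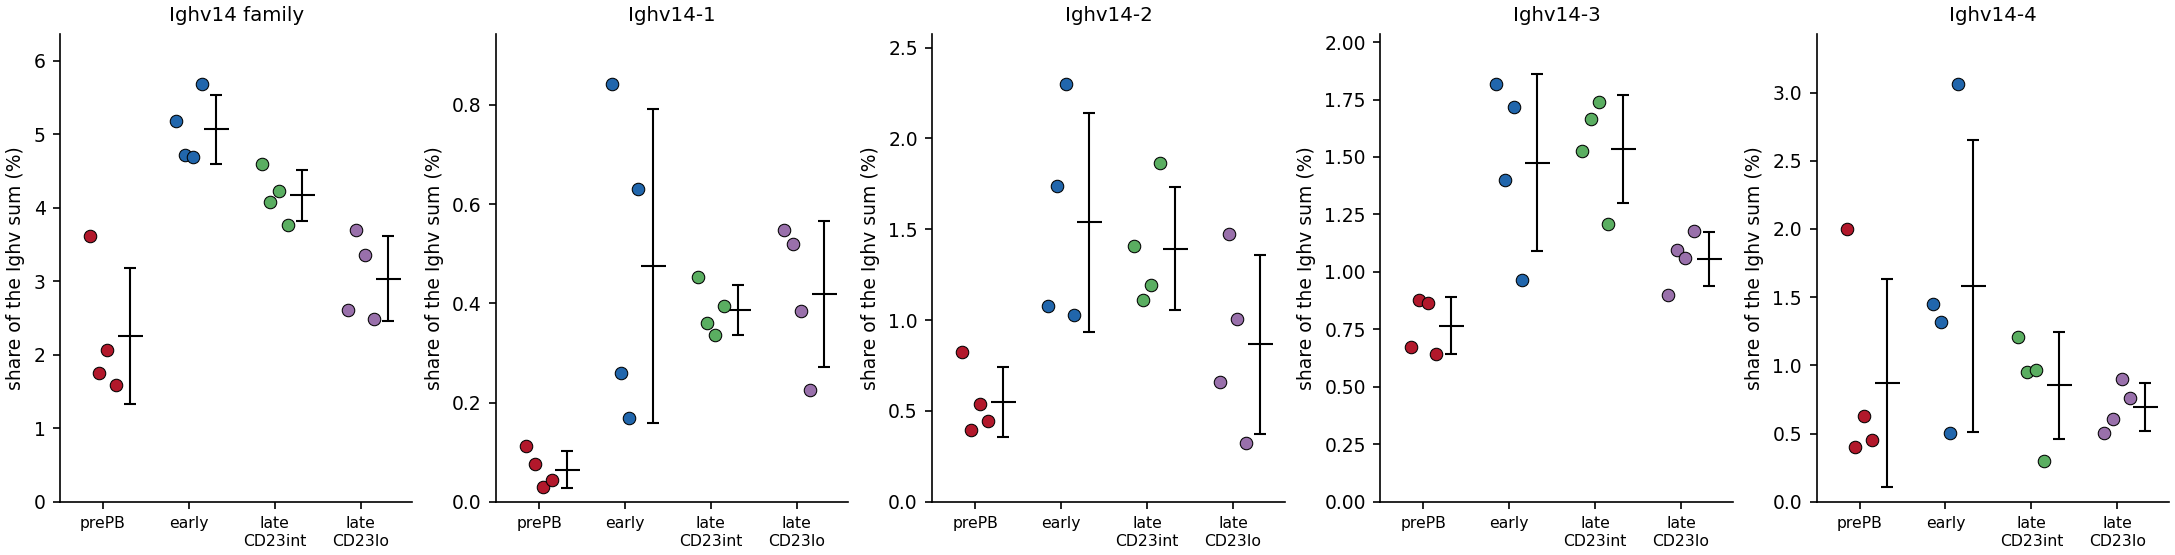
Share of the Ighv sum in percent for the Ighv14 family (left) and for each of its 4 genes, with 1 point per library and the mean with SD beside each group (n = 4); the vertical scale differs between panels. The family share was 4.69% to 5.69% for cMyc+early and 1.59% to 3.61% for cMyc+prePB libraries.

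Composition was compared between libraries as the overlap of shares, the sum over genes of the smaller of the 2 shares, which is 100% for identical repertoires. Libraries of the same subpopulation overlapped by 74.1% on average (24 pairs) and libraries of different subpopulations by 2.30 percentage points less (one-sided exact permutation p = 0.00145, adjusted over 7 measures 0.0102). Within subpopulations the mean overlap was 81.3% ± 2.1 (SD over 6 pairs) for cMyc+lateCD23int, 78.9% ± 1.8 for cMyc+early, 75.8% ± 3.0 for cMyc+lateCD23lo and 60.3% ± 6.2 for cMyc+prePB. The cMyc+prePB libraries therefore shared less with each other than they did with cMyc+early (65.2%), cMyc+lateCD23int (66.3%) or cMyc+lateCD23lo libraries (66.7%). The first cMyc+prePB library stood farthest from the rest, with a mean overlap of 55.2% over its 15 pairs, and the other 15 libraries had means of 66.0% to 76.5%.

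Outside the cMyc+prePB subpopulation, cMyc+early and cMyc+lateCD23int libraries overlapped with each other by 79.8% ± 2.5 (SD over 16 pairs), a mean between those within the 2 groups. Against cMyc+lateCD23lo libraries, the overlap was 75.3% ± 2.7 for cMyc+early and 77.2% ± 2.0 for cMyc+lateCD23int. With the 4 cMyc+prePB libraries left out, the difference between pairs of the same and of different subpopulations was 1.2 percentage points (one-sided exact permutation p = 0.0225). The difference over all 16 libraries no longer passed without the first (p = 0.0502) or the third cMyc+lateCD23int library (p = 0.0615) in the same exact permutation test.

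**Figure D4:**
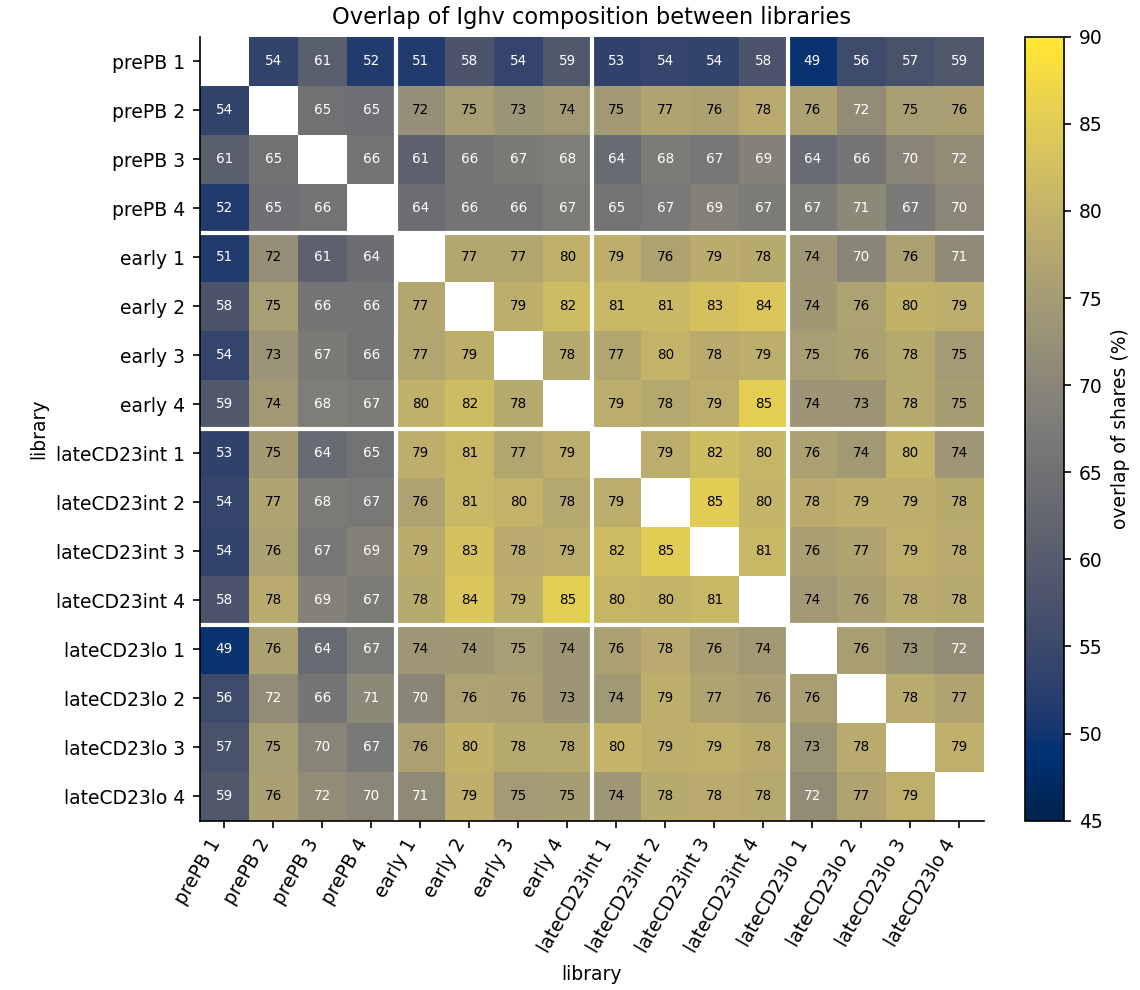
Overlap of Ighv shares in percent between every pair of the 16 libraries, with white lines between subpopulations and the diagonal left blank. The row of the first cMyc+prePB library was lowest throughout, at 49% to 61%, and the block of cMyc+early and cMyc+lateCD23int libraries was highest, at 76% to 85%.

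Genes from all parts of the locus were used. When the 113 IG_V_gene entries were ordered from the end next to the D segments and split into 3 parts, the proximal 38 genes (113578504 to 114263087) held 30.4% ± 2.9 of the Ighv sum (SD over 16 libraries), the middle 38 genes (114288152 to 115024459) 27.6% ± 5.3 and the distal 37 genes (115055223 to 116000461) 41.2% ± 4.3. The middle part, which contains Ighv6-3, Ighv9-4 and Ighv1-26, held 43.8%, 31.7%, 31.3% and 32.8% in the 4 cMyc+prePB libraries and 21.6% to 28.0% in the other 12. The proximal part, which contains Ighv9-3 and the Ighv14 family, held 27.0% ± 2.3 (SD, n = 4) in cMyc+prePB and 30.7% ± 1.3, 31.7% ± 2.0 and 32.1% ± 2.9 in the other 3. This split was made after the data were seen and was not tested. Spearman's rho between position and mean share over the 113 genes was 0.15, a description only.

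**Figure D5:**
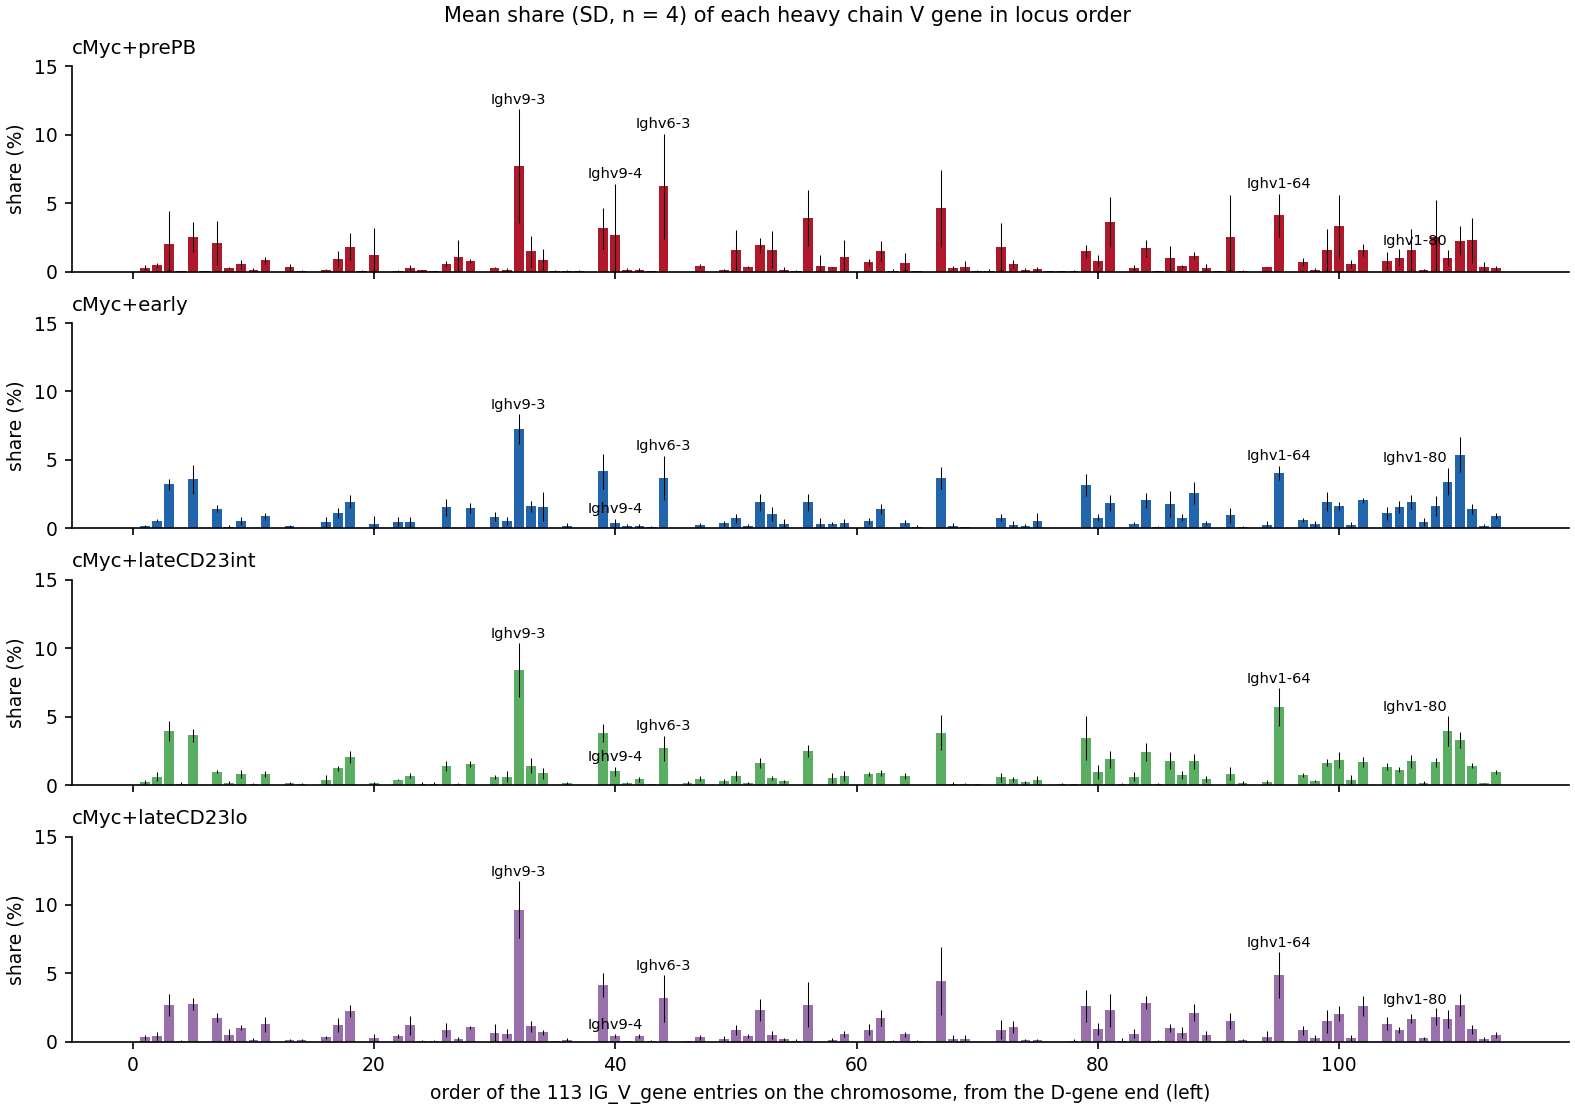
Mean share of the Ighv sum in percent (bars, with SD over 4 libraries as lines) of the 113 IG_V_gene entries in their order on chromosome 12 from the D-gene end, 1 panel per subpopulation. Ighv9-3 was the tallest bar in all 4 panels, and Ighv6-3 and Ighv9-4 were tall with wide SDs in the cMyc+prePB panel, at 6.23% ± 3.85 and 2.64% ± 3.79.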

How the data were processed

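RNA was extracted from sorted cells and libraries were made with the NEBNext Single Cell/Low Input kit and sequenced by the submitters, whose processing notes name Trimmomatic 0.36, RSEM 1.2.31, STAR 2.5.2a, DESeq2 1.20.0, R 3.5.1 and GRCm38 without giving their roles. The authors deposited 1 signal value per gene and library, a count divided by a size factor. In 15 of 16 libraries the steps between values gave whole reads for 100% of values (tolerance 0.001). In the other library the step was too near 1 for that check.

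Groups were taken from the sample labels. Shares are an entry's value divided by the Ighv sum of its library. Library-level values were compared with exact permutation tests over samples (2627625 partitions of 4 groups of 4; two-sided, but one-sided for the overlap). Single genes were tested with limma 3.58.1 in R 4.3.3 (log2(value + 1), trend, mean of at least 10, all 12505 genes that passed, all 16 libraries in one fit, Benjamini-Hochberg adjusted p). The pseudocount makes fold changes of low genes too small. Alternatives used edgeR 4.0.16 and DESeq2 1.42.0. Sequences were aligned with mafft 7.526. The limma test and the exact permutation test over subpopulations were tried on simulated data. The overlap difference was checked there against a direct computation only. edgeR, DESeq2 and the pairwise permutation tests were not tried on simulated data. Named genes were those with the 8 highest mean shares, those leading a library, up to 3 called per pair, the 3 smallest p over subpopulations, Ighv1-72, and the 3 nearest in pattern to the top gene. The members, the gene lists and the tests were chosen with earlier results of these data known. The family Ighv14 was followed up after its test was seen.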

Additional observations from a re-analysis of the deposited data

Results flagged for a closer look

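Each of 27 measures (library values, 2 family shares and the shares of named genes) was looked at in each of the 4 subpopulations for a library far from the other 3 by Dixon's criterion, which chance meets in about 1 of 20 groups. Of 108 groups, 6 held such a library, where that rate gives 5.4, so their number was near what chance gives. Several of the genes had been named because they led a single library or had a small p, and 5 of the 6 values came from cMyc+prePB libraries.

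In the first cMyc+prePB library, Ighv6-3 took 11.9% of the Ighv sum against 3.92% to 5.13% in the other 3, Ighv9-4 took 8.32% against 0.52% to 0.89%, and Ighv14-4 took 2.00% against 0.40% to 0.63%. In the third, Ighv1-62-2 took 7.13% against 0.57% to 1.43%. In the fourth, Ighv1-82 took 4.71% against 1.28% to 1.61%. Outside cMyc+prePB, Ighv6-3 took 6.09% of the fourth cMyc+early library against 2.79% to 3.07% in the other 3. The cause of these single-library values was not tested.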

How the results depend on the processing

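Here a library-level result passed at an unadjusted exact permutation p under 0.05. Over all alternatives, 163 of 174 recomputed library-level results kept their side of that threshold, and 198 of 202 counts of called Ighv genes stayed at 0. Only the overlap difference has a direction that could reverse, and it stayed positive. The other library-level values are shares of variance, which carry no direction. Values below are the share of the variance between libraries that lay between subpopulations, which was 0.576 for the Ighv sum, 0.583 for the effective number, 0.508 for the inverse Simpson number and 0.800 for the Ighv14 share. The Ighv sum no longer passed relative to Igkv (0.342) or without the 4 cMyc+prePB libraries (0.0424), nor did the effective number without them (0.0461), by exact permutation. The Ighv14 family no longer passed on log2 summed counts (0.346). The overlap difference was 0.412 when computed on log2 values (exact permutation p = 0.0912). DESeq2 called 4 Ighv genes over subpopulations and 2 in each cMyc+prePB pair, where limma called 0, and gave Ighv9-4 a log2 fold change of 3.59 between cMyc+prePB and cMyc+early. Alternatives for the Ighv14 share and those without cMyc+prePB or relative to Igkv or constant genes were chosen after seeing the data.

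Leaving out each library in turn gave 0.476 to 0.657 for the Ighv sum, lost without the first cMyc+prePB library. For the effective number it gave 0.483 to 0.685, which passed each time at the unadjusted threshold (highest exact permutation p = 0.0493). The inverse Simpson number, which had passed only before adjustment, gave 0.401 to 0.619. It was lost without the first (p = 0.101) or the fourth cMyc+prePB (p = 0.116) or the second cMyc+early library (p = 0.0525, exact permutation). The overlap difference ranged from 1.47 to 4.60 percentage points, lost without the first or the third cMyc+lateCD23int library. The Ighv14 share gave 0.776 to 0.907 and passed each time. Counts of called Ighv genes stayed at 0. For cMyc+prePB against cMyc+early, the log2 fold change ranged from 1.55 to 3.05 for Ighv9-4, 0.71 to 1.36 for Ighv1-82, 0.78 to 1.60 for Ighv6-3 and -1.71 to -1.02 for Ighv1-80.

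Replicate numbers were not treated as pairs in the main tests, and whether same-numbered libraries are pairs was not settled. The correlation of their deviations from the group means was 0.0509 on average (lowest -0.129), against -0.0166 for other pairs. Pairing does not require that every pair correlates, so the lowest value cannot decide this. Over all genes 10 of 16 libraries correlated best with their own number, a hint of pairing from the data, and 5 did over the Ighv genes. With a replicate block the exact permutation p was 0.0242 for the Ighv sum (0.576), 0.0164 for the effective number and 0.00137 for the Ighv14 share; limma called 0 Ighv genes and 173 of all genes in place of 51.

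Depth limits shares under 0.0216% to 0.0657%, and shares of near-identical genes depend on how reads were divided.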

Other observations

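Entries annotated as pseudogenes held 0.0750% to 1.72% of the Ighv sum, and 2 of the 80 tested entries were pseudogenes. Small families stayed below a mean share of 1%: Ighv4 held 0.80%, Ighv11 0.38% and Ighv13 0.27%. Ighv4, a family of 2 entries, had 0.38% ± 0.23 (SD, n = 4) for cMyc+prePB, 0.65% ± 0.27 for cMyc+early, 0.85% ± 0.19 for cMyc+lateCD23int and 1.32% ± 0.67 for cMyc+lateCD23lo. Ighv16 was at 0 in all 16 libraries.

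The light chain gave a second view of the same cells. The 160 Igkv entries summed to between 5.72 and 23.0 times the Ighv sum of the same library. The effective number of Igkv genes was 47.9, 50.4, 46.1 and 42.3 for cMyc+prePB libraries, 48.5 to 56.2 for cMyc+early, 46.9 to 49.8 for cMyc+lateCD23int and 47.8 to 49.3 for cMyc+lateCD23lo libraries, so that the lowest value was again in a cMyc+prePB library. These values were not tested.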
